A study of Mus musculus with 64 samples.

Results

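The cell division genes are 36 named genes of the 19521 in the deposited tables, and every one was found by its symbol. They were taken as 10 DNA replication genes, 24 mitosis genes and 2 transcription factor genes, Foxm1 and E2f1. Male C57BL/6J mice gave RNA from 4 tissues, namely white adipose tissue (WAT), liver, heart and muscle, with 4 libraries in each of 16 groups and 64 libraries in all. The groups were mutants labelled KO (Pklr-/-) on a high-sucrose diet (HSD), labelled KO on chow, wild-type mice (CTRL) on HSD and CTRL on chow. The diets began at 8 weeks of age and lasted 8 weeks, so all tissues were taken at 16 weeks. The labels state neither how the Pklr allele was made nor whether every tissue carries it, and the series' title concerns PKLR as a target in fatty liver disease.

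Pklr, the gene named as mutated, was higher in liver libraries labelled KO than in those labelled CTRL on the same diet. It lay at 313.7 to 458.7 TPM (transcript abundance scaled to transcript length and library size) in labelled KO on HSD, against 154.1 to 263.2 TPM in CTRL on HSD, and at 146.8 to 267.6 TPM in labelled KO on chow, against 61.6 to 141.2 TPM in CTRL on chow. The genotype is therefore given throughout as labelled, and every direction between genotypes rests on that label. Total estimated counts were 5724366 to 12188623 per library. Tissue labels were checked against marker genes. Summed white adipocyte markers were at least 37180 TPM in every WAT library and at most 1154 TPM in any other tissue. Cardiomyocyte markers summed to at least 7629 TPM in each heart library, while muscle libraries held 10.2 to 831.3 TPM of them, and 1 library, labelled KO on chow replicate 2 of muscle, held the 831.3 TPM. In WAT, labelled-KO chow replicate 3 stood apart in liver transcripts. Its 7 hepatocyte markers other than Cyp2e1 summed to 463.9 TPM, against 23.8 to 51.5 TPM in the other 15 WAT libraries, so results that rest on it are also given without it.

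Cell division genes are transcribed mainly while a cell passes through the cycle. Replication genes peak as cells enter DNA synthesis, under E2F factors that bind sites near their starts. Mitosis genes peak later, under a complex of B-MYB, MuvB and FOXM1 that recognises the cell cycle homology region (CHR) and works with NF-Y at nearby CCAAT boxes. Adult hepatocytes, cardiomyocytes, muscle fibres and fat cells rarely divide, so in these tissues such transcripts are generally ascribed to other resident cells, among them stromal, vascular and immune cells.

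The promoters shown here let the sites that separate mitosis from replication genes be seen beside the values. They are those of the 4 mitosis genes and the 1 replication gene with the smallest p among genes lower on HSD in WAT of labelled-KO mice. Mcm3 was added after its motifs had been counted, because it held the most E2F matches of the replication genes. Each runs from 250 bases before to 50 bases after the RefSeq start, from the RefSeq table of GRCm38.p6, 5′ to 3′ on the gene's strand. Capitals mark matches on either strand to the CHR motif TTTGAA, to the NF-Y motif CCAAT, and to 2 forms of the E2F motif, written TTCCCGC and alternatively TTGGCGC. The windows are Kif11 chr19:37376132-37376431 (plus strand), Ube2c chr2:164769679-164769978 (plus strand), Cdk1 chr10:69352863-69353162 (minus strand), Cdc20 chr4:118437294-118437593 (minus strand), Rrm2 chr12:24708004-24708303 (plus strand) and Mcm3 chr1:20820263-20820562 (minus strand).
Kif11: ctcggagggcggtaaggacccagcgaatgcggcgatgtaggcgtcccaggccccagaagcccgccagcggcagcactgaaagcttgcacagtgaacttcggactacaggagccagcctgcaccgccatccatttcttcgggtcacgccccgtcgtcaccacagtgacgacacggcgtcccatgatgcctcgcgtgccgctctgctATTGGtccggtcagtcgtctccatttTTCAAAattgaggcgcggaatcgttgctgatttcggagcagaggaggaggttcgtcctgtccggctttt
Ube2c: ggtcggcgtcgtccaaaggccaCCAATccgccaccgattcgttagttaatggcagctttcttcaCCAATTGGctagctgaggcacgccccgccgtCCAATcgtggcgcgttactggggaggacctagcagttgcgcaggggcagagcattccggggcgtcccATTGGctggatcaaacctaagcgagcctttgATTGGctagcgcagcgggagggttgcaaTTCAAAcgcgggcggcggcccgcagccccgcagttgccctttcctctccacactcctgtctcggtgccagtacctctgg
Cdk1: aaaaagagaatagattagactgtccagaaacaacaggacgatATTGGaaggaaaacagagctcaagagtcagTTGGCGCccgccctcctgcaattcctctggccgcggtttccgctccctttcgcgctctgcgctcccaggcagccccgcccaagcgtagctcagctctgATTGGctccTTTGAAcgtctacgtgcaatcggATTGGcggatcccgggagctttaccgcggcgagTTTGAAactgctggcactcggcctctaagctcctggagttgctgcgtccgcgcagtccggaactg
Cdc20: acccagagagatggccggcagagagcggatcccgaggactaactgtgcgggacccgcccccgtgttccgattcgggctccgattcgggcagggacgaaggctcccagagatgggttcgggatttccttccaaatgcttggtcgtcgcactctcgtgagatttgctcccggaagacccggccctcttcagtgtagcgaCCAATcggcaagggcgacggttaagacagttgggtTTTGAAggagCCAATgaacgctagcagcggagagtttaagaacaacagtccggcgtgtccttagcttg
Rrm2: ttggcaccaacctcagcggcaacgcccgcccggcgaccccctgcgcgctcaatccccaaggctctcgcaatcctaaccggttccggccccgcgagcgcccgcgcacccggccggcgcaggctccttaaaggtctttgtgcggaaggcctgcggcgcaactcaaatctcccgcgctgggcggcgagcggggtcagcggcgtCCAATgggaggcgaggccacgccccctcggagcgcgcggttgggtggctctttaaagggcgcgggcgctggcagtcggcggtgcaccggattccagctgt
Mcm3: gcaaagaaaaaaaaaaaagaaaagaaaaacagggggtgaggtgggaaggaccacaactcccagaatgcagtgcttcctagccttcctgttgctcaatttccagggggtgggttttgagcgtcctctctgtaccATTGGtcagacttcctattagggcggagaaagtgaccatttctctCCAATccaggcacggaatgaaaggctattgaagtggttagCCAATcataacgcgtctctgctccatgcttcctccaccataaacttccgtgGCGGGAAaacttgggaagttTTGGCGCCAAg

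Of the 36 genes, 30 matched the RefSeq promoter table. CHR matches occurred in 15 of 20 mitosis promoters (75%), in 1 of 9 replication promoters (11.1%) and in 18.1% of all 27025 promoters of the table. E2F matches occurred in 4 of 20 mitosis promoters (20%), in 5 of 9 replication promoters (55.6%) and in 6.93% of all promoters. CCAAT matches occurred in 18 of 20 mitosis promoters (90%), in 8 of 9 replication promoters (88.9%) and in 37.9% of all. In the Mcm3 window 2 of the 3 E2F matches overlap, and in the Ube2c window 2 CCAAT matches do. Ube2c, Cdc20, Kif11 and Cdk1 each carry at least 1 CHR match within 71 bases before the start, while Rrm2 holds a CCAAT match only. A match is a description of the letters and was not tested as a binding site.

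In WAT of labelled-KO mice, 12 of the 36 cell division genes fell on HSD and none rose. The 10 mitosis genes among them were Kif11, Ube2c, Cdk1, Cdc20, Prc1, Ccna2, Tpx2, Top2a, Aurka and Cdca8, and the other two were the replication gene Rrm2 and E2f1. Their log2 fold changes lay between -3.15 (Cdc20) and -0.44 (E2f1), with adjusted p of 0.0106 to 0.0494 (edgeR's quasi-likelihood test, Benjamini-Hochberg over 13255 genes, threshold 0.05). Among all genes tested, 3.68% fell in this comparison. The means of all 24 mitosis genes were lower on HSD, with a median log2 fold change of -1.59, against a median of 0.0041 over all genes tested. The replication genes had a median of -0.40, with 9 of 10 means lower and 1 of 10 past the threshold.

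Summed over the 24 mitosis genes, TPM was 37.2, 37.03, 25.9 and 26.7 in labelled-KO WAT on HSD, against 126.2, 145.3, 45.1 and 59.8 on chow. All 4 HSD libraries lay below all 4 chow libraries, and chow replicates 1 and 2 stood well above chow replicates 3 and 4. Those 2 chow libraries held the highest and second highest TPM of all 16 WAT libraries for 15 of the 24 mitosis genes. For all 24 mitosis genes the highest WAT library was one on chow. All mitosis sums in TPM given here include Cenpf, whose TPM did not follow its counts. In summed counts, not scaled to depth, the 24 genes held 315 to 535 on HSD and 572 to 1917 on chow in labelled-KO WAT. In bulk tissue, fewer dividing cells and less RNA per dividing cell cannot be told apart.

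**Figure D1:**
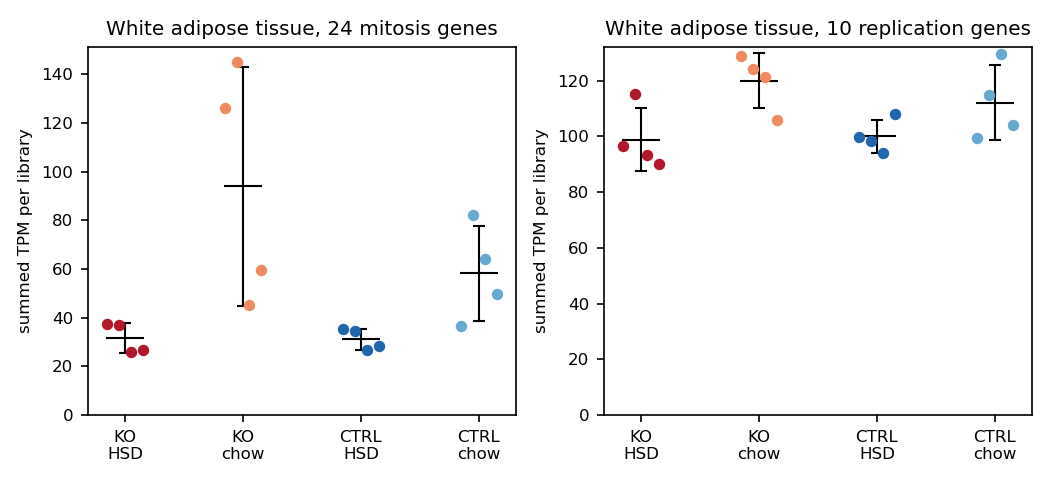
Summed TPM of the 24 mitosis genes (left) and the 10 replication genes (right) in each WAT library, with points for libraries and a bar and whiskers for mean ± SD (n = 4). The labelled-KO HSD libraries (25.9 to 37.2 for mitosis genes) lie below the labelled-KO chow libraries (45.1 to 145.3), while the replication sums span 90.1 to 129.7 over all groups. The mitosis sums include Cenpf, whose TPM did not follow its counts.

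Cdk1 (chromosome 10, 69335146 to 69352938, minus strand), the kinase that drives entry into mitosis, was at 1.59, 3.47, 2.40 and 2.17 TPM on HSD and at 11.6, 18.03, 2.93 and 8.02 TPM on chow in labelled-KO WAT. Its fold change was -2.15 ± 0.48 (log2 ± SE, n = 4 each, edgeR adjusted p = 0.0155), and HSD replicate 2 overlapped chow replicate 3. Ccna2 (chromosome 3, 36564865 to 36572150), cyclin A2, a partner of Cdk1, was at 1.12, 1.56, 0.983 and 0.434 TPM on HSD and at 6.52, 6.38, 1.31 and 3.01 TPM on chow. Its log2 fold change was -1.96 ± 0.50 (edgeR adjusted p = 0.0288), and here too 1 HSD library lay above 1 chow library. Cdc20 (chromosome 4, 118432901 to 118437352), an activator of the anaphase-promoting complex, had 0.559, 0.965, 0.206 and 0.114 TPM on HSD and 5.11, 7.85, 1.24 and 2.50 TPM on chow. With -3.15 ± 0.73 (edgeR adjusted p = 0.0190) it had the lowest fold change of the 36, and its HSD counts were only 6, 9, 2 and 1 per library. Ube2c (chromosome 2, 164769898 to 164778822), the ubiquitin-conjugating enzyme of that complex, was at 3.64, 4.42, 3.02 and 1.79 TPM on HSD and at 11.9, 12.4, 6.63 and 6.95 TPM on chow. The 2 diets did not overlap (log2 fold change -1.46 ± 0.32, edgeR adjusted p = 0.0140).

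Kif11 (chromosome 19, 37376403 to 37421859), the kinesin that pushes spindle poles apart, was at 0.525, 0.934, 0.537 and 0.619 TPM on HSD and at 2.58, 3.05, 1.40 and 1.77 TPM on chow. It had the smallest p of the 36 (log2 fold change -1.63 ± 0.34, edgeR adjusted p = 0.0106), with all HSD libraries below all chow libraries. Tpx2 (chromosome 2, 152847964 to 152895321), a spindle assembly factor that activates Aurora A, was at 0.901, 0.924, 0.577 and 0.399 TPM on HSD and at 3.62, 5.63, 1.26 and 1.38 TPM on chow (-1.98 ± 0.50, edgeR adjusted p = 0.0289). Aurka (chromosome 2, 172356190 to 172370535), Aurora A itself, was at 1.73, 1.30, 1.76 and 0.913 TPM on HSD and at 3.79, 4.19, 2.73 and 2.66 TPM on chow (-1.10 ± 0.30, edgeR adjusted p = 0.0387). Neither gene overlapped between diets.

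Prc1 (chromosome 7, 80294450 to 80316259), which bundles microtubules of the central spindle, was at 5.58, 2.54, 4.87 and 3.71 TPM on HSD and at 13.9, 14.8, 4.64 and 8.02 TPM on chow in labelled-KO WAT (-1.71 ± 0.42, edgeR adjusted p = 0.0257). Here 2 HSD libraries lay above chow replicate 3. Cdca8 (chromosome 4, 124918465 to 124939311), borealin of the chromosomal passenger complex, was at 0.909, 1.21, 0.513 and 1.31 TPM on HSD and at 4.36, 6.16, 2.58 and 2.001 TPM on chow (-1.86 ± 0.53, edgeR adjusted p = 0.0456). Top2a (chromosome 11, 98992943 to 99024189), the topoisomerase that untangles sister chromatids, was at 1.29, 1.17, 0.943 and 0.936 TPM on HSD and at 4.29, 5.87, 1.78 and 2.16 TPM on chow (-1.57 ± 0.42, edgeR adjusted p = 0.0361). Both were separate between diets.

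**Figure D2:**
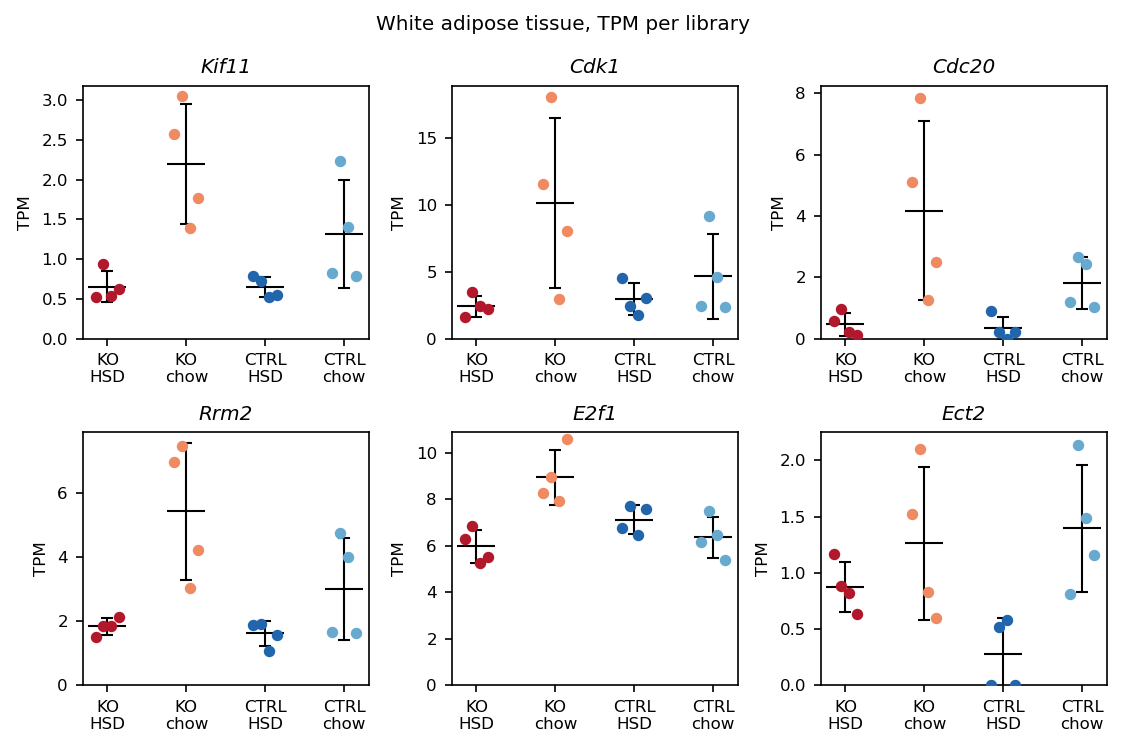
TPM of 6 cell division genes in each WAT library, with points for libraries and a bar and whiskers for mean ± SD (n = 4), for labelled KO on HSD and chow and CTRL on HSD and chow. Kif11, Cdc20, Rrm2 and E2f1 do not overlap between HSD and chow in labelled-KO mice, and Ect2 is at or near 0 in 2 CTRL HSD libraries.

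The other 14 mitosis genes did not pass in labelled-KO WAT. Their log2 fold changes ran from -2.56 ± 0.81 for cyclin B1, Ccnb1 (edgeR adjusted p = 0.0683), to -0.51 ± 0.39 for the spindle protein gene Nusap1 (edgeR adjusted p = 0.469). The proliferation antigen Mki67 was at 0.986, 1.33, 0.280 and 0.690 TPM on HSD and at 4.02, 4.60, 1.20 and 1.47 TPM on chow (-1.68 ± 0.56, edgeR adjusted p = 0.0852), with HSD replicate 2 above chow replicate 3. Cenpf, a kinetochore gene, is given by counts, because its TPM did not follow its counts. For instance, labelled-KO HSD replicate 4 had 13 counts and 3.93 TPM, while chow replicate 1 had 52 counts and 8.42 TPM. Its counts were 15, 15, 5 and 13 on HSD and 52, 59, 15 and 12 on chow (-1.70 ± 0.60, edgeR adjusted p = 0.0997).

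Rrm2 (chromosome 12, 24708241 to 24714146), the cell-cycle-regulated subunit of ribonucleotide reductase, was the replication gene that fell. It was at 1.51, 1.83, 1.83 and 2.14 TPM on HSD and at 6.96, 7.47, 3.03 and 4.21 TPM on chow in labelled-KO WAT (-1.64 ± 0.40, edgeR adjusted p = 0.0227), with no overlap. Its partner subunit Rrm1, which is less tied to the cycle, had -0.37 ± 0.18 (edgeR adjusted p = 0.211). The helicase subunits Mcm2 to Mcm7 had -0.59 ± 0.29 (Mcm5) to 0.19 ± 0.12 (Mcm7), none past the threshold, with a lowest edgeR adjusted p of 0.155 (Mcm3). Pcna, the sliding clamp of the polymerases, was at 47.1, 50.7, 44.2 and 41.7 TPM on HSD and at 53.7, 55.5, 54.03 and 48.6 TPM on chow (-0.07 ± 0.09, edgeR adjusted p = 0.694). The diets overlapped for Pcna, and it was the most abundant replication gene in TPM. Tyms, thymidylate synthase, had -0.26 ± 0.24 (edgeR adjusted p = 0.557).

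E2f1 (chromosome 2, 154559407 to 154569892), an activator of replication genes, was at 6.29, 6.84, 5.26 and 5.51 TPM on HSD and at 8.26, 8.97, 7.92 and 10.6 TPM on chow in labelled-KO WAT (-0.44 ± 0.13, edgeR adjusted p = 0.0494). In CTRL WAT its value was in the other direction, 0.32 ± 0.13, without passing (edgeR adjusted p = 0.150). The interaction of genotype and diet for E2f1 was -0.77 ± 0.18 and did not pass (edgeR adjusted p = 0.0623). Foxm1, the factor that acts on mitosis genes, had -1.33 ± 0.46 in labelled KO (edgeR adjusted p = 0.0929) and -0.97 ± 0.47 in CTRL (edgeR adjusted p = 0.229).

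**Figure D3:**
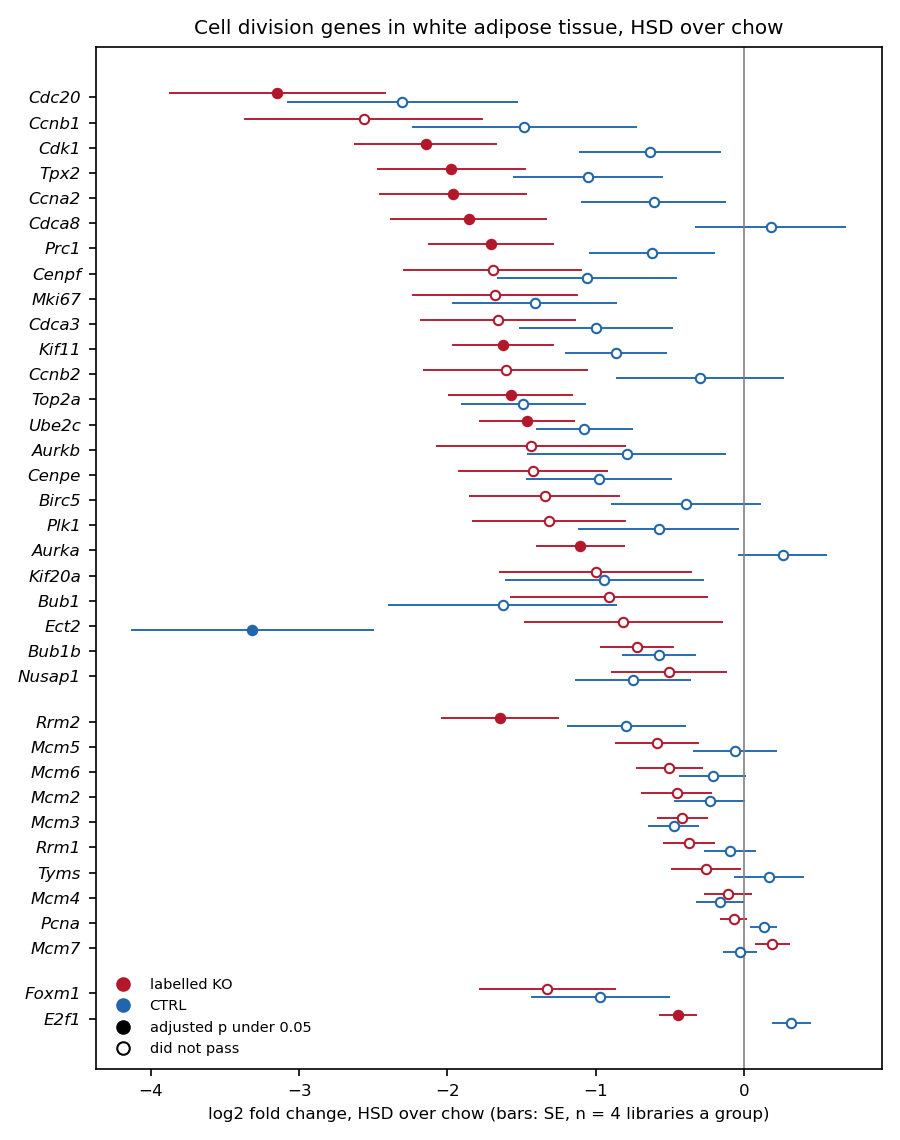
Log2 fold change, HSD over chow, of the 36 genes in WAT of labelled-KO (red) and CTRL (blue) mice, with bars for the standard error and filled points for edgeR adjusted p under 0.05. All 24 mitosis values of labelled KO lie below 0, and 12 genes pass there, against Ect2 alone in CTRL.

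Single libraries set how many of the 12 passed in labelled-KO WAT. Without chow replicate 3, the library with liver transcripts, all 12 passed, and so did Ccnb2 (-1.88), Cdca3 (-1.91) and Mki67 (-1.94), 15 in all. The count was 1 without chow replicate 2, 4 without chow replicate 1, and 7, 2 and 3 without HSD replicates 2, 3 and 4. Of the 12, only E2f1 was lost without chow replicate 4, and Cdca8, E2f1 and Top2a without HSD replicate 1. Kif11 passed in all 8 fits with a library left out, Ube2c in 7, Cdk1 in 6, Cdc20 in 5, Ccna2, Rrm2 and Tpx2 in 4, Aurka and Prc1 in 3, Cdca8 and Top2a in 2, and E2f1 in 1. Across these fits the fold changes of all 12 stayed below 0. With only the 8 libraries of the comparison in the fit, 7 passed. The share of all genes called is not set beside these counts, so a loss of members is not told apart from a general loss of calls. TPM did not overlap between diets for 17 of the 36 genes, all lower on HSD, where 13.5% of all genes tested did the same.

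Several other measures of WAT moved with diet in the same labelled-KO libraries. The counts of markers past the threshold stand beside 3.68% of all genes lower and 6.38% in either direction. A single marker past the threshold is not read as a change of its cell type. Fibroblast and preadipocyte markers summed to 3616 to 4128 TPM on HSD and 6169 to 7707 TPM on chow, with 6 of 11 lower past the threshold, led by Col6a1 and Sparc. Endothelial markers summed to 348.6 to 385.8 TPM on HSD and 479.3 to 634.8 TPM on chow, with 1 of 9 lower (Cdh5). Macrophage markers overlapped, at 982 to 1461 TPM on HSD and 1395 to 1896 TPM on chow, with 1 of 14 tested lower (Itgax). Mesothelial markers were at 92.2 to 215.2 TPM on HSD and 271.9 to 405.4 TPM on chow, with 1 of 5 lower, and 2 of 9 markers of lipid-associated macrophages were lower. None of the T cell or B cell markers passed, and white adipocyte markers were at 49660 to 62110 TPM on HSD and 39820 to 53990 TPM on chow. Hepatocyte markers summed to 4184 to 5329 TPM on HSD and 1701 to 2832 TPM on chow, nearly all of it Cyp2e1, a drug-metabolising enzyme gene (log2 fold change 1.49 ± 0.21, edgeR adjusted p = 0.000924), and 1 of 6 tested was higher. The 7 others summed to 39.5 to 48.7 TPM on HSD and 23.8 to 463.9 TPM on chow. The clock score, the mean log2 count scaled to library size of 6 clock genes of one phase minus that of 3 of the opposite phase, was 2.46 to 3.30 on HSD and -1.59 to 0.09 on chow. With this score as a covariate no cell division gene passed, and neither did any of the 13255 genes. The part of these cell types in the fall of the mitosis genes was not tested, and diet and clock score cannot be told apart in these libraries. Within the chow group, replicates 1 and 2 had clock scores of -1.57 and -1.59, against 0.05 and 0.09 in replicates 3 and 4. White adipocyte markers were lower in replicates 1 and 2, at 39820 and 41430 TPM against 53990 and 50440 TPM. Fibroblast and preadipocyte markers were higher there, at 7373 and 7707 against 6169 and 6450 TPM. Markers of lipid-associated macrophages were also higher there, at 5470 and 5912 against 4563 and 3957 TPM. T cell markers were lower there, at 11.7 and 6.63 against 12.4 and 18.5 TPM. Endothelial and mesothelial sums and the sum of the general macrophage markers overlapped between the 2 pairs. What this split has to do with the mitosis genes was not tested.

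In CTRL WAT, 1 of the 36 genes fell on HSD, where 2.92% of all genes did. It was Ect2 (chromosome 3, 27097222 to 27153878), the exchange factor that starts the cleavage furrow, with 0, 2, 9 and 0 counts on HSD and 22, 70, 36 and 26 counts on chow (-3.31 ± 0.82, edgeR adjusted p = 0.0346). The groups did not overlap, and the call was lost without CTRL chow replicate 2 or 4 (edgeR adjusted p = 0.101 and 0.0709) or without HSD replicate 1, 2 or 4 (0.0999, 0.0957 and 0.0794). It was also lost with the clock score as covariate (edgeR adjusted p = 0.0510) and with the length trend removed (0.0652). Of the 24 mitosis genes 22 had lower means on HSD, with a median of -0.90, against -0.04 over all genes. Top2a (-1.49 ± 0.42, edgeR adjusted p = 0.0535) and Ube2c (-1.08 ± 0.33, edgeR adjusted p = 0.0646) were the next by p.

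The mitosis sum in CTRL WAT was 35.2, 34.4, 26.6 and 28.2 TPM on HSD and 36.8, 82.1, 64.1 and 49.9 TPM on chow. The HSD libraries were all below the chow libraries, although HSD replicate 1 and chow replicate 1 almost met. The HSD libraries of both genotypes overlapped, and 2 chow libraries of labelled KO lay above all those of CTRL. TPM did not overlap for 9 of the 36 genes, all lower on HSD, where 18.3% of all genes did so. Fibroblast markers were at 3837 to 4776 TPM on HSD and 5479 to 6881 TPM on chow in CTRL WAT, with 2 of 11 lower. Endothelial markers were at 266.2 to 332.6 TPM on HSD and 407.1 to 535.4 TPM on chow, with 5 of 9 lower. These marker counts stand beside 2.92% of all genes that fell, and the part of these cell types in the mitosis sum was not tested. The clock score was -1.51 to 0.23 on HSD and -0.50 to 1.43 on chow and overlapped. CTRL chow replicates 2 and 4 had trends of expression on transcript length of 0.21 and 0.13 per log2 of length, and without both of them no cell division gene passed.

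Labelled-KO and CTRL WAT on chow differed in 1 of the 36 genes, E2f1, which was higher in labelled KO, as were 1.18% of all genes. E2f1 was at 8.26, 8.97, 7.92 and 10.6 TPM in labelled KO and at 6.14, 7.504, 6.46 and 5.37 TPM in CTRL (0.52 ± 0.13, edgeR adjusted p = 0.0237), with no overlap. The call was lost without CTRL chow replicate 4 (edgeR adjusted p = 0.0787) or labelled-KO chow replicates 2 or 4 (0.0550 and 0.0615). It was also lost in the fit of only the 8 libraries compared (0.0816), under the clock covariate (0.101), after removal of length trends (0.0592), without both length-slope libraries (0.131) and by limma on log2(TPM + 1) (0.0580). Without labelled-KO chow replicate 3, Cdk1 passed as well (1.59 ± 0.39, edgeR adjusted p = 0.0235). The means of 33 of the 36 genes were higher in labelled KO, with a median of 0.52 against 0.02 over all genes, and those libraries are the same chow libraries as in the diet comparison. Among mitosis genes the smallest p belonged to Aurka (0.86 ± 0.30, edgeR adjusted p = 0.0882) and Cdk1 (1.24 ± 0.45, edgeR adjusted p = 0.106).

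On HSD, no cell division gene differed between labelled KO and CTRL in WAT (edgeR; 0.106% of all genes did), and 1, Ect2, had an unadjusted p under 0.05, as did 10.6% of all genes, while DESeq2 and limma called none. The mitosis sums were 25.9 to 37.2 TPM in labelled KO and 26.6 to 35.2 TPM in CTRL. No member passed in the interaction of genotype and diet either (0.573% of all genes did). At an unadjusted p under 0.05 there were 5 of 36 members, beside 18.5% of all genes. Without labelled-KO chow replicate 3, E2f1 passed (-0.86 ± 0.18, edgeR adjusted p = 0.0341). The fall of the mitosis genes on HSD in labelled KO was thus not shown to differ from that in CTRL. For Aurka the interaction was -1.36 ± 0.43 (edgeR adjusted p = 0.121) and for Cdca8 -2.04 ± 0.73 (edgeR adjusted p = 0.160). DESeq2's Wald test called 1 member in the interaction, and limma on log2(TPM + 1) none.

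Genes of the same processes outside the 36 were taken from 3 wider lists. The lists were chosen with earlier results of these data known, so they are not independent support. Of 54 further mitosis genes tested in labelled-KO WAT, 9 fell on HSD and none rose, where 3.68% of all genes fell. The median of the 54 was -1.09, and 50 had lower means. The kinesin genes Kifc1 (-2.39 ± 0.50), Kif15 (-3.72 ± 0.89) and Kif22 (-2.35 ± 0.57), the microtubule destabiliser Stmn1 (-1.42 ± 0.35), the kinetochore gene Nuf2 (-1.94 ± 0.51) and Hmmr (-1.75 ± 0.49) had the smallest p, with edgeR adjusted p of 0.0100 to 0.0429. Of 41 further replication genes tested none passed, and their median was -0.16. In CTRL WAT 1 of the 54 mitosis genes passed, the securin gene Pttg1, which rose by 0.54 ± 0.14 (edgeR adjusted p = 0.0444), where 4.77% of all genes passed in either direction.

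Of 35 tested genes of G1 control and cycle inhibition, 2 passed in labelled-KO WAT, where 6.38% of all genes passed in either direction, a share near that of the list. Lin52, a subunit of MuvB, rose (0.67 ± 0.13, edgeR adjusted p = 0.00757). Cdkn1a, the p21 inhibitor of cyclin-dependent kinases, fell. It was at 23.8, 26.1, 35.2 and 31.4 TPM on HSD and at 81.5, 133.2, 70.0 and 82.8 TPM on chow in labelled-KO WAT (-1.51 ± 0.21, edgeR adjusted p = 0.000924). In CTRL WAT it was at 67.8, 56.6, 66.4 and 49.98 TPM on HSD and at 73.3, 59.99, 53.98 and 63.1 TPM on chow. The 4 labelled-KO HSD libraries were thus below the other 12, and the interaction of genotype and diet for Cdkn1a was -1.64 ± 0.29 (edgeR adjusted p = 0.0203). The same 4 libraries had clock scores of 2.46 to 3.30, against at most 1.43 in the other 12. The clock score and this pattern of Cdkn1a therefore cannot be told apart here.

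Among the cell division genes with a promoter in the RefSeq table, the fall in labelled-KO WAT is given by motif as a description. The 15 mitosis genes with a CHR match had fold changes of -3.15 to -0.72, with a median of -1.63. Of them 8 passed, where 3.68% of all genes fell. The 5 mitosis genes without one had -2.56 to -0.51, with a median of -1.35, and none passed. The 5 replication genes with an E2F match had -0.59 to 0.19, with a median of -0.42, and none passed. The 4 replication genes without one had -1.64 to -0.07, with a median of -0.36, and 1 passed, Rrm2.

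In heart, 23 of the 36 genes had enough counts to be tested, and none passed in any comparison by edgeR. The share of all genes called there was 0.14% for HSD over chow in labelled KO, 0.0247% for HSD over chow in CTRL, 0% for labelled KO over CTRL on chow, 0.0412% for labelled KO over CTRL on HSD and 0.00824% for the interaction. Of the 12 mitosis genes tested, 11 had lower means on HSD in labelled KO (median -0.68) and 10 in CTRL (median -0.62), while the replication genes had medians of 0.02 and -0.05. At an unadjusted p under 0.05, 4 of 23 members were lower on HSD in labelled KO and 3 of 23 in CTRL, beside 4% and 3.88% of all genes. None reached it for labelled KO over CTRL on chow or on HSD or for the interaction, beside 3.68%, 5.44% and 4.78%. DESeq2's Wald test and limma on log2(TPM + 1) also called none.

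Mki67 had the smallest p of the cell division genes in heart in both genotypes. It was at 0.291, 0.207, 0.315 and 0.278 TPM on HSD and at 0.449, 0.632, 0.393 and 0.504 TPM on chow in labelled-KO heart (-0.84 ± 0.25, edgeR adjusted p = 0.275). In CTRL heart it was at 0.353, 0.168, 0.277 and 0.211 TPM on HSD and at 0.710, 0.514, 0.510 and 0.412 TPM on chow (-0.97 ± 0.25, edgeR adjusted p = 0.389). The diets did not overlap in either genotype. Such separation, lower on HSD, occurred for 2 of the 23 genes in labelled KO, where 6.36% of all genes showed it, and for 7 of the 23 in CTRL, where 6.91% did. Top2a had -1.21 ± 0.47 in labelled KO (edgeR adjusted p = 0.522) and -1.19 ± 0.45 in CTRL (edgeR adjusted p = 0.714), from 3 to 39 counts per library.

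Liver had 19 testable cell division genes, all 10 replication genes among them, but 8 of the 24 mitosis genes, and none passed by edgeR. The shares of all genes called in liver were 0.00888% for HSD over chow in labelled KO, 4.67% for HSD over chow in CTRL, 0% for labelled KO over CTRL on chow, 0.0711% on HSD and 0% for the interaction. Mitosis sums were 6.38 to 12.98 TPM in labelled KO on HSD, 5.97 to 11.4 TPM in labelled KO on chow, 7.33 to 20.4 TPM in CTRL on HSD and 7.65 to 15.3 TPM in CTRL on chow, all overlapping. At an unadjusted p under 0.05 there were 2 members for HSD over chow in labelled KO (Ect2 and Mcm7), 0 in CTRL, 1 for labelled KO over CTRL on chow (Rrm2), 2 on HSD (Ect2 and Aurka) and 1 for the interaction (Ect2), each of 19. The shares of all genes were 10%, 21.3%, 12.2%, 5.86% and 8.7% in the same order, so these counts lay near or below the background except on HSD between genotypes. Ect2 counts in liver jumped between libraries, at 6, 0, 0 and 0 in labelled KO on HSD, 18, 12, 11 and 4 in labelled KO on chow, 22, 0, 56 and 22 in CTRL on HSD and 8, 19, 20 and 22 in CTRL on chow. DESeq2's Wald test and limma also called none in liver.

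Muscle had 16 testable genes, of which 6 were mitosis genes and neither factor was among them. None passed by edgeR, DESeq2 or limma, with shares of all genes called of 0.00827% for HSD over chow in labelled KO, 0.091% in CTRL, and 0% for labelled KO over CTRL on chow, on HSD and for the interaction. Mitosis sums were 3.59 to 8.47 TPM in labelled KO on HSD, 6.96 to 7.74 TPM in labelled KO on chow, 6.49 to 7.35 TPM in CTRL on HSD and 4.65 to 6.88 TPM in CTRL on chow. These rest on 76 to 191 counts per library over 24 genes, and what size of change could be detected was not tested. The 191 counts were in labelled-KO chow replicate 2, the muscle library with cardiomyocyte markers, and the sums include it. Its part in the sums was not tested, and with that library left out still no member passed. At an unadjusted p under 0.05 there were 2 members for HSD over chow in labelled KO (Mcm4 and Prc1), 1 in CTRL (Pcna), 2 for the interaction (Prc1 and Pcna) and 0 between genotypes on either diet, each of 16. The shares of all genes were 8.39%, 14.9% and 7.88% for these 3 comparisons, and 11.3% on chow and 5.16% on HSD between genotypes. Mcm4 had the smallest p in muscle, 0.56 ± 0.16 for HSD over chow in labelled KO (edgeR adjusted p = 0.245).

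**Figure D4:**
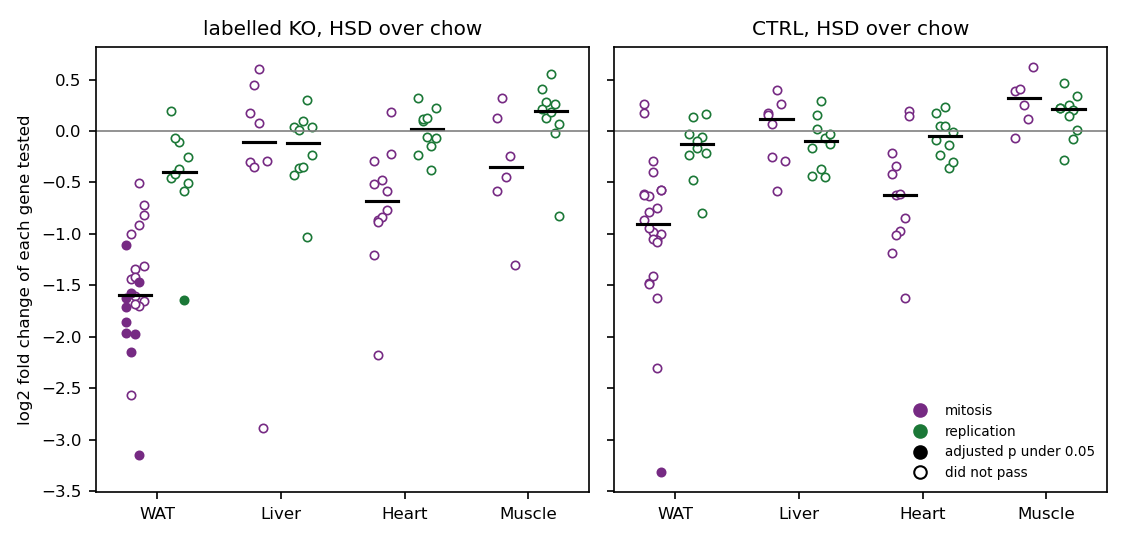
Log2 fold change, HSD over chow, of each mitosis gene (purple) and replication gene (green) tested in each tissue, in labelled KO (left) and CTRL (right), with black lines for medians and filled points for edgeR adjusted p under 0.05. Filled points occur in WAT only, and the mitosis medians lie at -1.59 and -0.90 in WAT and at -0.68 and -0.62 in heart.

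The diet response of WAT was set against that of each other tissue in fits of 32 libraries. One cell division gene differed, Rrm2, whose response in labelled KO was lower in WAT than in liver by -1.94 ± 0.46 (log2, edgeR adjusted p = 0.0293), as were 0.576% of all genes. In liver Rrm2 was at 7.57, 5.74, 6.00 and 6.41 TPM on HSD and at 3.63, 6.13, 4.30 and 5.02 TPM on chow in labelled KO. These groups overlapped, with all 4 HSD libraries above 3 of the 4 chow libraries. The call was lost without labelled-KO chow replicates 1 or 2 or HSD replicates 1 or 4 of WAT, and without chow replicates 1 or 3 or HSD replicate 4 of liver, where no member passed. Without labelled-KO chow replicate 3 of WAT, 2 members passed. No member differed for the CTRL response against liver (3.97% of all genes did), for the labelled-KO and CTRL responses against heart (0.801% and 0.455%), or for those against muscle (1.07% and 6.45%). At an unadjusted p under 0.05 these had 3 members (CTRL against liver), 7 and 0 (labelled KO and CTRL against heart) and 10 and 5 (against muscle), each of 36. All genes gave 21.5% against liver, 11.6% and 13.7% against heart, and 14.1% and 23.2% against muscle. The CTRL counts thus lay below the background, and the labelled-KO counts against heart and muscle lay above it. Many mitosis genes were below the count filter in the other tissues taken alone, which limits what these fits could show. No mitosis gene differed past the adjusted threshold, so the fall of the mitosis genes in WAT was not shown to be particular to WAT. The WAT comparisons share the same WAT libraries.

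Levels between tissues were compared in CTRL mice on chow by edgeR, which scales for the few very abundant transcripts of a tissue. WAT over liver gave 14 genes higher and 3 lower of 36, beside 73.6% of all genes called in either direction. WAT over heart gave 16 higher and 2 lower, beside 69%, and WAT over muscle 26 higher and 2 lower, beside 76.8%. The lower ones were Rrm2, Aurka and Tyms over liver, Cenpf and Rrm1 over heart, and Rrm1 and Pcna over muscle. In either direction 17, 18 and 28 of 36 genes were called over liver, heart and muscle. These counts lay below the share of all genes over liver and heart, and near it over muscle. The medians of the mitosis genes were 1.16, 0.89 and 2.20 (log2) over liver, heart and muscle, and those of the replication genes 0.32, 0.51 and 0.72, against 0.10, 0.11 and 0.19 over all genes tested. In the fits of single tissues all 36 genes passed the count filter in WAT, while 17 did not in liver, 13 in heart and 20 in muscle. Such genes could enter these fits through WAT alone, so for them a higher level in WAT was largely fixed by the filter. The counts of genes higher and the medians include them and are not separate support for a higher level in WAT. On the TPM scale the median gene was itself 1.49, 1.58 and 1.57 higher in WAT (log2), so TPM levels of different tissues are not set against each other here. On that scale Aurka and Tyms (over liver), Rrm1 (over heart and muscle) and Pcna (over muscle) had the opposite sign.

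Rrm2 and Cenpf went against the higher medians of WAT, while E2f1 went with them. Rrm2 was lower in WAT than in liver by -2.68 ± 0.32 (edgeR adjusted p = 1.17e-08), and it was also higher in liver than in heart (2.98 ± 0.25, edgeR adjusted p = 3.21e-12) and than in muscle (2.64 ± 0.31, edgeR adjusted p = 7.04e-09). Cenpf was lower in WAT than in heart by -3.91 ± 0.40 (edgeR adjusted p = 1.26e-09), with 5 to 59 counts in the 16 WAT libraries, 142 to 373 in heart, 0 to 16 in liver and 1 to 31 in muscle. The other mitosis genes did not share that excess in heart, where Mki67 had 19 to 95 counts and Top2a 3 to 39. E2f1 was higher in WAT than in liver (0.94 ± 0.20), heart (3.06 ± 0.27) and muscle (3.57 ± 0.26), each past the threshold by edgeR. It was below the count filter in heart and in muscle taken alone. Liver over heart gave 6 higher and 3 lower of 27 genes tested (74.5% of all genes called), liver over muscle 13 and 2 of 28 (76.6%), and heart over muscle 7 and 3 of 25 (57.9%).

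**Figure D5:**
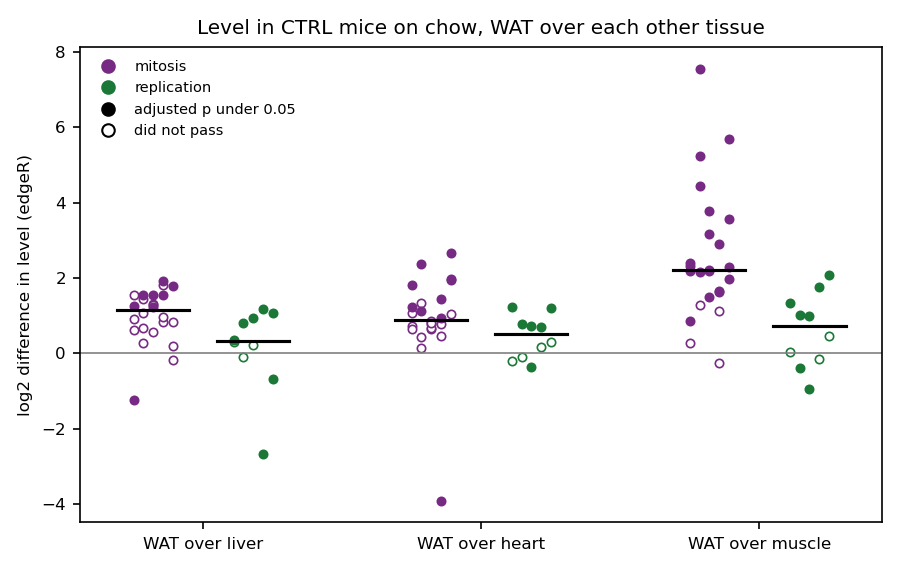
Log2 difference in level between WAT and each other tissue in CTRL mice on chow for the mitosis genes (purple) and replication genes (green), with black lines for medians and filled points for edgeR adjusted p under 0.05. The lowest points are Cenpf over heart (-3.91) and Rrm2 over liver (-2.68). Genes below the count filter in the other tissue taken alone are included.

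Some members cannot be counted cleanly. Among the genes that fell in labelled-KO WAT, exons of Ccna2, Cdc20, Ube2c, Cdca8 and Prc1 overlap genes on the opposite strand in the GENCODE M21 annotation (GRCm38), by 510, 53, 592, 232 and 911 bases. For Ube2c the overlapping gene is Tnnc2. Ube2c was called higher in muscle, at -2.089 for liver over muscle and -1.705 for heart over muscle (log2, edgeR). Whether reads of Tnnc2 enter its counts was not tested. Among the other members Kif20a, Mcm7, Nusap1 and Plk1 do so, by 1271, 321, 172 and 156 bases, and whether strand was used is not given in the sources used here. On the same strand, exons of Foxm1 and Top2a overlap other genes by up to 144 and 122 bases, and those of Mcm7 overlap microRNA genes. Pcna, Tyms, Ccnb1 and Ccnb2 have annotated processed copies that can share reads. Gene coordinates above are those of the same annotation.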

How the data were processed

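RNA-seq of 64 mouse libraries was used, with groups taken from the tissue, genotype and diet in the labels. The authors deposited estimated counts and TPM per gene, and per the submitters' processing notes kallisto and the build GRCm38 were used. The version of kallisto is not given in the sources used here, nor is the annotation release. The labels describe 4 mice per group, so libraries of a group were taken as separate animals. Rounded estimated counts were tested with edgeR 4.0.16 in R 4.3.3: filterByExpr with a minimum count of 10, TMM, group means per tissue (16 libraries) or per pair of tissues (32 libraries), robust quasi-likelihood F tests, 2-sided, Benjamini-Hochberg over all genes tested, threshold 0.05. Standard errors are the fold change over the square root of F. Members were named beforehand for this work. They and the wider and marker lists were chosen with earlier results of these data known. Values in every library are given for members past the threshold and for genes needed beside them; up to 6 genes of a wider list and 4 of a marker list with the smallest p were named.

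Alternatives were DESeq2 1.42.0 size factors in edgeR, the DESeq2 Wald test, limma 3.58.1 on log2(TPM + 1), no low-count filter, only the 8 libraries compared, each library's length trend removed, a clock score as covariate, each library left out, and a replicate block. Tests were checked on simulated data. None of 96 replicate pairs was identical, with chi-square at least 4.421 times its degrees of freedom. Promoters came from the RefSeq table of GRCm38.p6.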

Additional observations from a re-analysis of the deposited data

Results flagged for a closer look

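The summed TPM of the 24 mitosis genes was 16.0 in CTRL heart on chow replicate 1, against 11.6 in the next highest library of that group. Its distance from the other libraries is what drew attention. Of 59 groups of 4 examined this was the only one, and chance gives about 1 in 20.

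The response of Rrm2 to HSD in labelled-KO mice differed between WAT and liver, at -1.94 (log2, WAT minus liver). The difference itself was tested in 1 fit over both tissues.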

How the results depend on the processing

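Beside the fits that leave out a library, 175 counts of cell division genes called were recomputed, and 14 moved by over 1.5 times. Of the other 161, 130 were counts of 0 that stayed at 0. In WAT of labelled-KO mice, HSD over chow called 12 genes, 7 with only the 8 libraries compared and 0 with the clock score as covariate, where Ccna2 (0.30) and Tpx2 (0.77) also changed sign. In CTRL WAT, HSD over chow called 1 gene, 4 with DESeq2's Wald test, with limma on log2(TPM + 1) or with the clock score, and 0 with the length trend removed. Without the CTRL chow libraries with a length slope beyond 0.1, an alternative added after seeing the data, 0 genes were called in the CTRL diet comparison and 0 for labelled KO over CTRL on chow. That comparison called 1 gene, 2 with DESeq2's Wald test, and 0 with limma, the clock score, the length trend removed or only 8 libraries. The interaction in WAT went to 1 gene with DESeq2's Wald test. The causes of these moves were not tested, and the share of all genes called is not set beside the counts of this section. Limma's log2(TPM + 1) shifted the median of all genes by -0.115 in labelled KO and -0.169 in CTRL for HSD over chow in WAT.

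With each library left out in turn, the WAT counts ranged over 1 to 15 genes for HSD over chow in labelled KO, 0 to 2 in CTRL, 0 to 2 for labelled KO over CTRL on chow and 0 to 1 for the interaction. The response of WAT minus liver ranged over 0 to 2 genes in labelled KO and 0 to 1 in CTRL, and that of WAT minus muscle over 0 to 1 in CTRL. Whether libraries with the same number come from 1 mouse is not stated in the labels, and the numbers were not taken as pairing: correlations of same-numbered libraries between tissues had medians of 0.0306 to 0.0689, with 4 to 6 of 16 over 0.1. As a hint from the data that they may, 9 to 14 of 16 correlated best with their own number, out of the 4 libraries of the same group. The main fits between tissues may therefore ignore a pairing by mouse. As a replicate block the number gave 16 genes for WAT over liver, 16 for WAT over heart and 29 for WAT over muscle, and it moved none of the 12 counts by over 1.5 times. Depth limits liver and muscle most, where the 24 mitosis genes held 63 to 465 and 76 to 191 counts per library.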
